A study of Mus musculus with 8 samples.

Results

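Regulatory T cells are the CD4+ T cells that restrain other immune cells, and a small set of genes marks them in the mouse. The 10 genes examined here were chosen by symbol as known markers: Foxp3, Ikzf2, Ikzf4, Ctla4, Tigit, Tnfrsf18, Nrp1, Izumo1r, Gpr83 and Capg. All 10 were found among the 23156 genes of the deposited table, and 8 of them reached the mean footprint level of at least 1 FPKM that was required for a test. FPKM is the number of reads on a gene, divided by its length in kilobases and by the reads of the library. Ikzf4 and Gpr83 were below that level and are described by their values.

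Ribosome footprints, pieces of mRNA shielded from nuclease digestion by a ribosome, were sequenced from Mettl3 knockout (KO) and wild-type (WT) mice, both on the C57BL/6 background, with 2 libraries per genotype. The cells were labelled CD4+ T cells and isolated as naive T cells, and KO and WT cells alike received cycloheximide (0.1 mg/ml, 1 min) to stop ribosomes in place. Mettl3 encodes the enzyme that methylates adenosines of mRNA to m6A. The labels give neither the Mettl3 allele nor any promoter that drives its deletion, and whether the duplicates are separate animals is not stated, so p-values reflect a spread between libraries that may be only technical. The matching input RNA was not analysed here, and a footprint difference therefore holds any difference of mRNA amount together with any difference of ribosome density.

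Regulatory T cells depend on the transcription factor Foxp3, which is needed for their formation and for their suppressive function, and on interleukin 2 received through its high-affinity receptor. Several of their other markers are not exclusive to them. Ctla4, Tigit, Tnfrsf18 and Nrp1 are also made by activated conventional T cells, and Izumo1r also marks anergic T cells in the mouse. A naive T cell preparation can hold some regulatory T cells, and in a bulk library fewer cells of a type and less RNA per cell cannot be told apart.

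Library depth, estimated from the FPKM that 1 read gives and rounded, was 5850000 and 2860000 reads in KO libraries 1 and 2, and 5800000 and 3440000 reads in WT libraries 1 and 2. Low values were therefore least precise in KO library 2. Mettl3 stood at 2.44 and 3.32 FPKM in the KO libraries, against 24.5 and 21.1 FPKM in the WT libraries, and its exons overlap those of Tox4 on the opposite strand. The cell label was examined with markers: Cd4 had 82.0 and 101 FPKM in KO and 94.6 and 97.1 FPKM in WT, while Cd8a, which marks cytotoxic T cells, was between 0.369 and 0.551 FPKM in all 4 libraries.

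The windows around the start codons of 4 of the genes are shown because translation begins there, for both genes that passed the test, for Foxp3 and for Ctla4. Each window runs 5′ to 3′ on the transcript strand over 30 bases, 9 of them before the start codon, which is in capitals. They were read from GENCODE M21 transcripts (GRCm38).
Nrp1: cgaaggaggATGgagagggggctgccgttg
Izumo1r: ttgaaggtcATGgcacagtggtggcagatc
Ctla4: cccccagccATGgcttgtcttggactccgg
Foxp3: aagaacccaATGcccaaccctaggccagcc
A purine 3 bases before the start codon, part of the context that mammalian ribosomes favour, was present in 9 of the 10 genes, with Foxp3 the exception, and in 87.1% of the 8672 tested coding genes. A G just after the start codon was present in 5 of the 10, namely Ikzf2, Ctla4, Tnfrsf18, Nrp1 and Izumo1r, and in 54.7% of those genes. Both features together were present in the same 5 genes and in 47.6% of the tested coding genes. Nrp1 and Izumo1r, which moved in opposite directions, are among the 5.

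Of the 8 tested genes, Nrp1 rose and Izumo1r fell in Mettl3 KO cells, and 6 did not pass the threshold (limma, Benjamini-Hochberg adjusted p under 0.05 over 9271 genes). Across all 9271 tested genes 2.22% passed, 1.56% as higher and 0.658% as lower in KO. Foxp3 itself averaged 1.70 ± 0.135 FPKM in KO and 2.24 ± 0.118 FPKM in WT (SD, n = 2 each) and did not pass. The 10 genes did not share a direction: both KO libraries exceeded both WT libraries at 5 of them, lay below both at 2, and overlapped with them at 3. Among these, Ikzf4 (KO above) and Gpr83 (overlap) were not tested, while the following shares cover tested genes only. Among all tested genes the libraries did not overlap at 50.9%, with KO above at 16.3% and below at 34.6%. Small RNA genes took 55.7% and 49.4% of the summed FPKM in KO and 43.7% and 37.0% in WT, and the part of this in the levels was not tested. The median log2 difference of the 8 tested genes was 0.22, against -0.10 for all tested genes, which became -0.03 when libraries were rescaled to 1 sum over tested genes. Nrp1 reached the level for testing through its KO libraries, so these counts describe the 8 genes and carry no test.

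**Figure D1:**
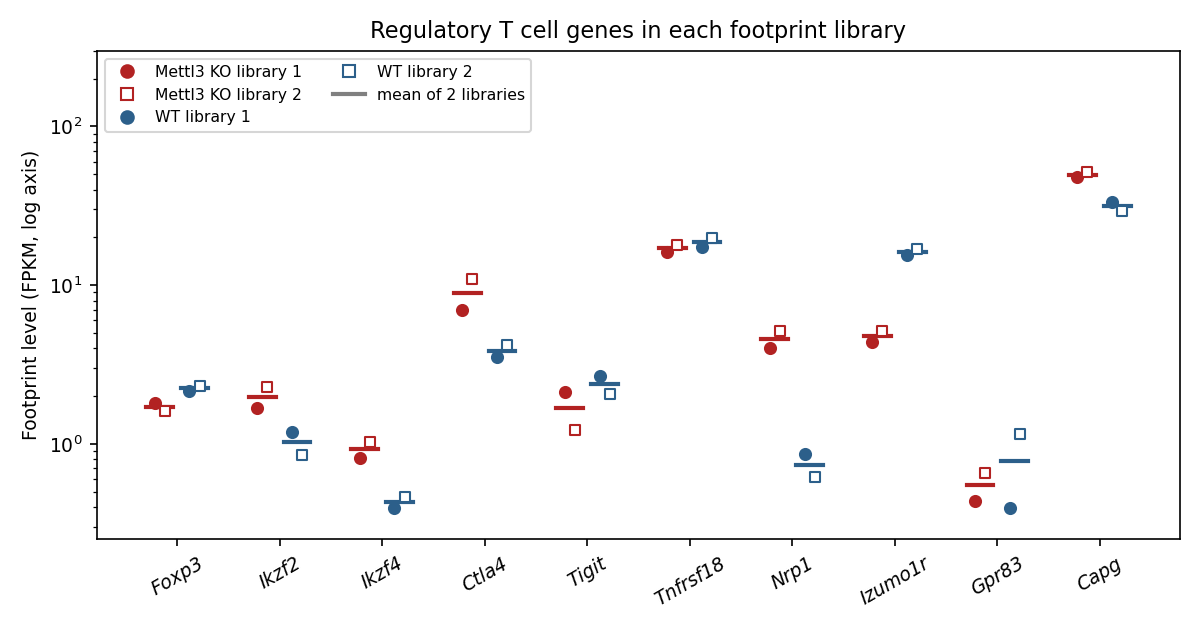
Footprint level in FPKM (log axis) of the 10 genes in each library, Mettl3 KO in red on the left and WT in blue on the right of each gene, with filled circles for library 1, open squares for library 2 and a line at the mean. Nrp1 is higher in KO (4.04 and 5.12 FPKM against 0.859 and 0.618 FPKM in WT), Izumo1r is lower, and the libraries overlap at Tnfrsf18, Tigit and Gpr83.

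Among the transcription factors, Foxp3, on the X chromosome (7573644 to 7595245, plus strand, GRCm38 from GENCODE M21, as for all genes here), had 1.80 and 1.60 FPKM in KO and 2.15 and 2.32 FPKM in WT. Both KO libraries were the lower ones, by a small margin. The log2 difference was -0.26 (SE 0.22, 95% interval -0.77 to 0.25, limma adjusted p = 0.566). The values rest on an estimated 40 and 18 reads in KO and 48 and 31 reads in WT. Exons of Foxp3 overlap those of Ccdc22 and Ppp1r3f on the opposite strand, and Ccdc22 stood at 9.22 and 11.9 FPKM in KO and 11.7 and 12.4 FPKM in WT. The noncoding genes Flicr, on the same strand, and Gm36995, on the opposite strand, also overlap its exons and were not among the genes of the deposited table. Since the use of strand is not given in the sources used here, part of the Foxp3 signal cannot be told apart from that of the opposite-strand genes. Reads on exons shared with Flicr could not be separated by strand in any case.

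Ikzf2 encodes Helios, a zinc finger factor of the Ikaros family that stabilises regulatory T cells. On chromosome 1 (69531214 to 69687245, minus strand), it had 1.68 and 2.28 FPKM in KO and 1.19 and 0.849 FPKM in WT. Both KO libraries were higher, and the difference did not pass the threshold (log2 difference 0.56, SE 0.25, 95% interval -0.03 to 1.15, limma adjusted p = 0.291). Ikzf4, on chromosome 10 (128630843 to 128645991), encodes Eos, a relative of Helios that acts with Foxp3 to silence genes. It had 0.814 and 1.03 FPKM in KO and 0.394 and 0.463 FPKM in WT, on an estimated 25 and 15 reads in KO and 12 and 8 in WT, and was too low for a test. Both Helios and Eos thus had KO libraries above WT libraries. Over all tested genes the libraries did not overlap at 50.9%, with KO above at 16.3%, so this order does not set the 2 genes apart. The libraries of the more abundant family members overlapped. Ikzf1, which encodes Ikaros, averaged 29.9 ± 4.94 FPKM in KO and 31.4 ± 3.83 FPKM in WT (SD, n = 2 each). Ikzf3, which encodes Aiolos, averaged 8.39 ± 0.937 FPKM in KO and 8.15 ± 1.55 FPKM in WT (SD, n = 2 each). Ikzf5, named after its values were seen, had 7.78 FPKM in KO and 6.53 FPKM in WT. By limma, 0 of the 4 tested family members passed the threshold, and 0 had an unadjusted p under 0.05. Exons of Ikzf2 and Ikzf4 each overlap a noncoding gene on the opposite strand.

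Among the inhibitory receptors, Ctla4 encodes the receptor that competes with CD28 for CD80 and CD86 and removes these ligands from antigen-presenting cells. On chromosome 1 (60887000 to 60915832, plus strand), it had 6.97 and 11.0 FPKM in KO and 3.55 and 4.19 FPKM in WT. Every KO library was above every WT library, with a mean 2.32 times as high, and the 95% interval of the log2 difference lay above 0 (1.01, SE 0.23, 0.47 to 1.55), but the adjusted p missed the threshold (limma, 0.0823). It passed at 0.0430 when each library was centred on its median, within a range of 0.0430 to 0.335 over all settings. The KO libraries differed from each other by more than the WT libraries did, with SDs of 2.83 FPKM in KO and 0.453 FPKM in WT.

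Tigit encodes a receptor for CD155 that competes with the activating receptor CD226. On chromosome 16 (43648867 to 43664146, minus strand), it had 2.12 and 1.23 FPKM in KO and 2.69 and 2.07 FPKM in WT, so the genotypes overlapped. The log2 difference was -0.35 (SE 0.26, 95% interval -0.96 to 0.26, limma adjusted p = 0.518). With an estimated 11 and 3 reads in KO and 14 and 7 reads in WT, these values rest on few reads. Ctla4 and Tigit, both inhibitory, had log2 differences of opposite sign, and the difference between these genes was not tested.

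Tnfrsf18 encodes GITR, a costimulatory receptor of the TNF receptor family that is abundant on regulatory T cells. On chromosome 4 (156026164 to 156028895, plus strand), it had 16.2 and 17.9 FPKM in KO and 17.5 and 19.9 FPKM in WT. The genotypes overlapped, and the 95% interval of the log2 difference ran from -0.47 to 0.22 around -0.12 (SE 0.15, limma adjusted p = 0.693). Tnfrsf4, which encodes OX40 and lies 9.55 kb away on the same strand, was named after its values were seen: it had 8.33 and 7.33 FPKM in KO and 3.35 and 4.10 FPKM in WT, and missed the threshold (limma adjusted p = 0.0575). It passed with libraries centred (0.0389) or rescaled (0.0384), within a range of 0.0384 to 0.255 over all settings.

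Nrp1 encodes neuropilin 1, a receptor for semaphorins that marks regulatory T cells formed in the mouse thymus. On chromosome 8 (128358604 to 128503363, plus strand), it had 4.04 and 5.12 FPKM in KO and 0.859 and 0.618 FPKM in WT. Both KO libraries were far above both WT libraries, with means of 4.58 ± 0.770 FPKM in KO and 0.739 ± 0.170 FPKM in WT (SD, n = 2 each), 6.20 times as high. On the log2 scale the difference was 1.68 (SE 0.23, 95% interval 1.14 to 2.22, limma adjusted p = 0.0163). Its WT mean was below the 1 FPKM required for a test. Nrp1 was thus tested only through its KO libraries, and the interval and p-value are descriptive. The values rest on an estimated 85 and 53 reads in KO and 18 and 8 reads in WT. An exon of Nrp1 contains the microRNA gene Mir1903, which was listed at 227 FPKM in KO library 1 and at no more than 0.0313 FPKM in the other libraries. In KO library 2 Mir1903 was at 0.0313 FPKM and Nrp1 at 5.12 FPKM, and the part of Mir1903 in KO library 1 was not tested. The limma adjusted p was 0.0979 without KO library 1, 0.190 without KO library 2, 0.0680 without WT library 1 and 0.0955 without WT library 2, and it was 0.212 with no filter on low genes, within a range of 0.0109 to 0.212.

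Izumo1r encodes folate receptor 4, a surface protein abundant on mouse regulatory and anergic T cells. On chromosome 9 (14885814 to 14903949, minus strand), it had 4.35 and 5.16 FPKM in KO and 15.6 and 16.9 FPKM in WT. The KO libraries were both far below the WT libraries, with means of 4.75 ± 0.571 FPKM in KO and 16.3 ± 0.980 FPKM in WT (SD, n = 2 each), and the WT mean was 3.42 times the KO mean. The log2 difference was -1.59 (SE 0.16, 95% interval -1.97 to -1.20, limma adjusted p = 0.00692). The estimate is 33 and 19 reads in KO and 117 and 75 reads in WT, and no exon of another gene in GENCODE M21 overlaps its exons. The limma adjusted p was 0.0680 without KO library 1, 0.0828 without KO library 2, 0.0534 without WT library 1 and 0.0760 without WT library 2, and it was 0.166 with no filter on low genes, within a range of 0.00308 to 0.166. In the order of levels among the 10 genes, Izumo1r was the 3rd highest in WT and the 4th highest in KO, where it stood next to Nrp1.

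Gpr83 encodes a G protein-coupled receptor that is part of the mouse regulatory T cell signature. It lies 15025 bp from Izumo1r on chromosome 9 (14860210 to 14870789), on the opposite strand. It had 0.438 and 0.657 FPKM in KO and 0.392 and 1.16 FPKM in WT, on an estimated 9 and 7 reads in KO and 8 and 14 in WT. The WT libraries enclosed the KO libraries, unlike at the neighbouring Izumo1r.

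Capg encodes a protein that caps actin filaments and was the most abundant of the 10. On chromosome 6 (72544391 to 72562983, plus strand), it had 47.9 and 51.3 FPKM in KO and 33.3 and 29.5 FPKM in WT. The replicates lay close together and apart from the other genotype, with a KO mean 1.58 times the WT mean. The 95% interval of the log2 difference lay above 0 (0.65, SE 0.13, 0.34 to 0.96), but its adjusted p just missed the threshold (limma, 0.0593). It passed with libraries centred on their medians (0.0384), with libraries rescaled to 1 sum (0.0409) and among genes of at least 5 FPKM (0.0398), within a range of 0.0384 to 0.321. Capg has the largest estimate of reads, 392 and 206 in KO and 270 and 142 in WT. With libraries centred on their medians, 3 of the 8 tested genes were therefore higher and 1 was lower. Over all 9271 tested genes, centring called 206 as higher and 51 as lower, against 145 and 61 without it.

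**Figure D2:**
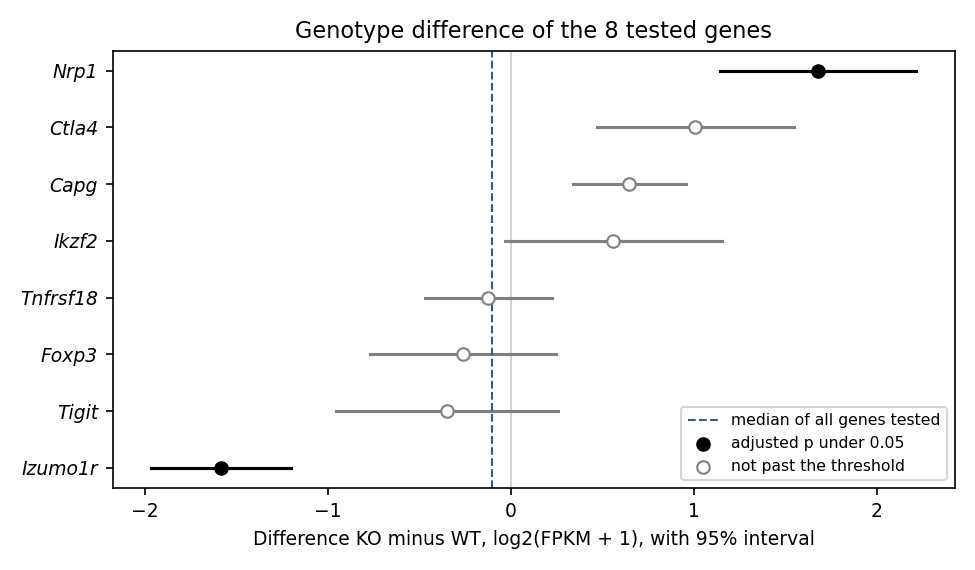
Difference of log2(FPKM + 1), Mettl3 KO minus WT, for the 8 tested genes, with 95% intervals from limma, filled where the adjusted p was under 0.05 and open otherwise. Nrp1 (1.68) and Izumo1r (-1.59) stand at the ends, and the dashed line marks the median of all tested genes at -0.10.

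In the order of WT levels, Capg was followed by Tnfrsf18, Izumo1r, Ctla4, Tigit and Foxp3, and Ikzf2, Gpr83, Nrp1 and Ikzf4 were the lowest. Among neighbours in this order, the WT libraries overlapped between Tigit and Foxp3 and among Ikzf2, Gpr83 and Nrp1. Nrp1 was thus the 9th of 10 in WT and the 5th in KO. Summed over the 10 genes, the level was 86.3 and 97.3 FPKM in KO and 77.6 and 78.0 FPKM in WT. Without Capg it was 38.4 and 46.0 FPKM in KO and 44.3 and 48.5 FPKM in WT, where the genotypes overlapped.

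A ratio between genes of the same library does not depend on how the library was scaled, and the levels were set against Foxp3 on that account. Nrp1 had 2.25 and 3.19 times the FPKM of Foxp3 in KO, against 0.399 and 0.267 times in WT. Izumo1r had 2.42 and 3.21 times the Foxp3 level in KO, against 7.23 and 7.31 times in WT. Ctla4 had 3.88 and 6.84 times in KO and 1.65 and 1.81 times in WT. Ikzf2, Ikzf4 and Capg were likewise higher relative to Foxp3 in both KO libraries than in either WT library. Tnfrsf18, whose own libraries overlapped, had 9.03 and 11.2 times the Foxp3 level in KO and 8.13 and 8.59 times in WT, so the lower Foxp3 values in KO also enter these ratios, and Tigit and Gpr83 overlapped between the genotypes. The ratio of Nrp1 to Izumo1r was 0.928 and 0.994 in KO and 0.0552 and 0.0365 in WT. An exact permutation test of 2 libraries against 2 cannot give a two-sided p below 0.333, and none is given for these ratios.

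**Figure D3:**
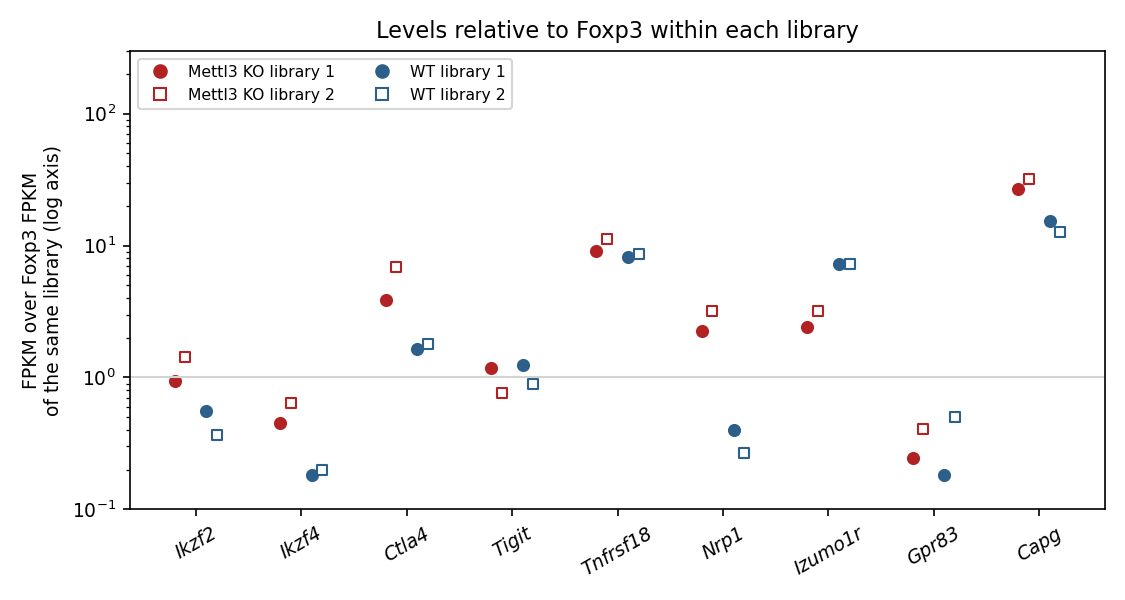
FPKM of each gene divided by that of Foxp3 in the same library (log axis), with Mettl3 KO in red left of WT in blue, filled circles for library 1 and open squares for library 2. Nrp1, Ctla4, Capg, Ikzf2, Ikzf4 and, by less, Tnfrsf18 stand higher against Foxp3 in KO, Izumo1r stands lower (2.42 and 3.21 in KO against 7.23 and 7.31 in WT), and Tigit and Gpr83 overlap.

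The other genes of regulatory T cell biology were described from 6 lists on interleukin 2 signalling, partners and regulators of Foxp3, effector molecules, the Ikaros family, partners of CTLA-4 and TIGIT, and TNF receptor costimulators. Apart from the 10 genes they hold 71 genes, of which 49 were tested, 3 rose and 0 fell, with 13 at an unadjusted p under 0.05, which 18.4% of all tested genes reached. Their median log2 difference was -0.02, against -0.10 for all tested genes, of which 2.22% passed. The 3 genes that rose were Il2rb, Nt5e and Icos, and the lists on Foxp3 partners, the Ikaros family and TNF receptor costimulators held none. With no filter on low genes, limma called none of the 3. With 1 library left out, Il2rb was called in 1 of 4 fits (adjusted p 0.0473 to 0.140), and Nt5e (0.112 to 0.264) and Icos (0.0932 to 0.264) in 0 of 4. With small RNA genes kept, Nt5e (0.0935) and Icos (0.104) did not pass, nor with no variance trend (0.0894 and 0.0968), and Icos did not with the replicate block (0.0569).

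Interleukin 2 signals through a receptor whose alpha chain, encoded by Il2ra, marks regulatory T cells. Il2ra averaged 0.745 ± 0.206 FPKM in KO and 0.713 ± 0.164 FPKM in WT (SD, n = 2 each), below the level for a test and without separation by genotype. Il2rb, the beta chain shared with the interleukin 15 receptor, had 11.1 and 16.0 FPKM in KO and 3.39 and 3.56 FPKM in WT (log2 difference 1.69, SE 0.20, limma adjusted p = 0.0125). It was the 1 gene of 6 tested in the list that passed, and Jak1, the most abundant of the list, averaged 131 FPKM in KO and 146 FPKM in WT.

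Of 23 tested partners and regulators of Foxp3, 0 passed the threshold by limma and 2 had an unadjusted p under 0.05. The list includes abundant genes such as Satb1, a chromatin organiser (44.1 FPKM in KO, 46.9 FPKM in WT), and Cbfb, the subunit that binds Runx factors (33.4 FPKM in KO, 38.6 FPKM in WT). The median of this list was -0.09. Over all tested genes 2.22% passed and 18.4% had an unadjusted p under 0.05. Among 25 effector molecules, 10 were tested, 2 rose, and 5 had an unadjusted p under 0.05 by limma. Nt5e encodes CD73, the enzyme that makes adenosine at the cell surface, and had 15.1 and 18.9 FPKM in KO and 7.04 and 8.50 FPKM in WT (limma adjusted p = 0.0368). Icos encodes a costimulatory receptor and had 13.4 and 18.1 FPKM in KO and 7.48 and 6.75 FPKM in WT (limma adjusted p = 0.0423). The remaining 15 effector genes, among them Il10, which encodes a suppressive cytokine, were below the level for testing, and Itgb8, which encodes an integrin chain that activates TGF-beta, was at 0 in all 4 libraries. By limma, 0 of 6 tested TNF receptor costimulators passed, and 2 had an unadjusted p under 0.05, with Tnfrsf4 passing when libraries were centred or rescaled.

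Ctla4 lies between Cd28 and Icos on chromosome 1, 114 kb from Cd28 and 62.1 kb from Icos, all on the plus strand. The 3 genes encode related receptors. Icos was higher in KO, Ctla4 had higher values in KO without passing the threshold, and Cd28, named after its values were seen, had 21.5 and 27.1 FPKM in KO and 33.2 and 33.0 FPKM in WT (log2 difference -0.44, limma adjusted p = 0.192). Cd226, the activating counterpart of TIGIT and likewise named afterwards, had 15.3 and 18.0 FPKM in KO and 23.3 and 27.1 FPKM in WT (log2 difference -0.57, limma adjusted p = 0.117), lower in both KO libraries. In the list of partners of CTLA-4 and TIGIT, Icos was the 1 of 8 tested genes that passed. By limma, 5 of the 8 had an unadjusted p under 0.05. Over all tested genes 2.22% passed and 18.4% had an unadjusted p under 0.05.

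Nrp1 has 1 coding neighbour of the table within 200 kb, Itgb1, which encodes integrin beta 1 and lies 182 kb away on the same strand. Itgb1 also rose, with 24.8 and 34.8 FPKM in KO and 12.8 and 11.0 FPKM in WT (log2 difference 1.24, SE 0.19, limma adjusted p = 0.0223), and its adjusted p was between 0.0680 and 0.190 with any 1 library left out, 0.0797 with small RNA genes kept, 0.0784 with no variance trend and 0.245 with no filter on low genes. The 3 tested coding neighbours of Izumo1r, namely Mre11a, Panx1 and Ankrd49, did not pass. Over all 10 genes there were 56 pairs with a tested coding neighbour within that distance. The neighbour was called higher in 3 pairs (Icos, Itgb1 and Isg15, an interferon-induced gene near Tnfrsf18) and lower in 2 (Esyt1 near Ikzf4, and Izumo1r as the neighbour of Gpr83), with Isg15 and Esyt1 named after their values were seen. Over all tested genes 1.56% were called higher and 0.658% lower, and as neighbours share regions the pairs are not independent.

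Because several of the 10 genes are also made by other T cells, lists for those states were measured beside them. Of 12 activated and memory T cell genes, all tested, 8 rose and 0 fell, against 1.56% and 0.658% of all tested genes. The 8 include Il2rb and Itgb1, which are described above. Of the 8, Bhlhe40, Tbx21 and Ccr2 had WT means of 0.912, 0.660 and 0.846 FPKM and reached the level for testing only through their KO libraries, so the count is a description. Cxcr6, a chemokine receptor gene, had 25.8 and 32.9 FPKM in KO and 4.63 and 3.70 FPKM in WT, and Bhlhe40, a transcription factor gene, had 9.81 and 14.5 FPKM in KO and 0.658 and 1.17 FPKM in WT. Without KO library 2 neither passed the limma threshold (adjusted p = 0.0634 and 0.0897). The summed level of this list was 314 and 364 FPKM in KO and 229 and 236 FPKM in WT, and its part in the higher values of Nrp1, Ctla4, Icos and Capg was not tested. In the anergy list, which holds Nrp1 and Izumo1r, 7 genes were tested. Nrp1 and Nt5e rose and Izumo1r fell, while Dgka and the other 3 did not pass. Of 5 tested follicular helper genes Icos rose, and Cxcr5, which encodes the receptor that guides cells to follicles, averaged 2.36 FPKM in both genotypes.

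**Figure D4:**
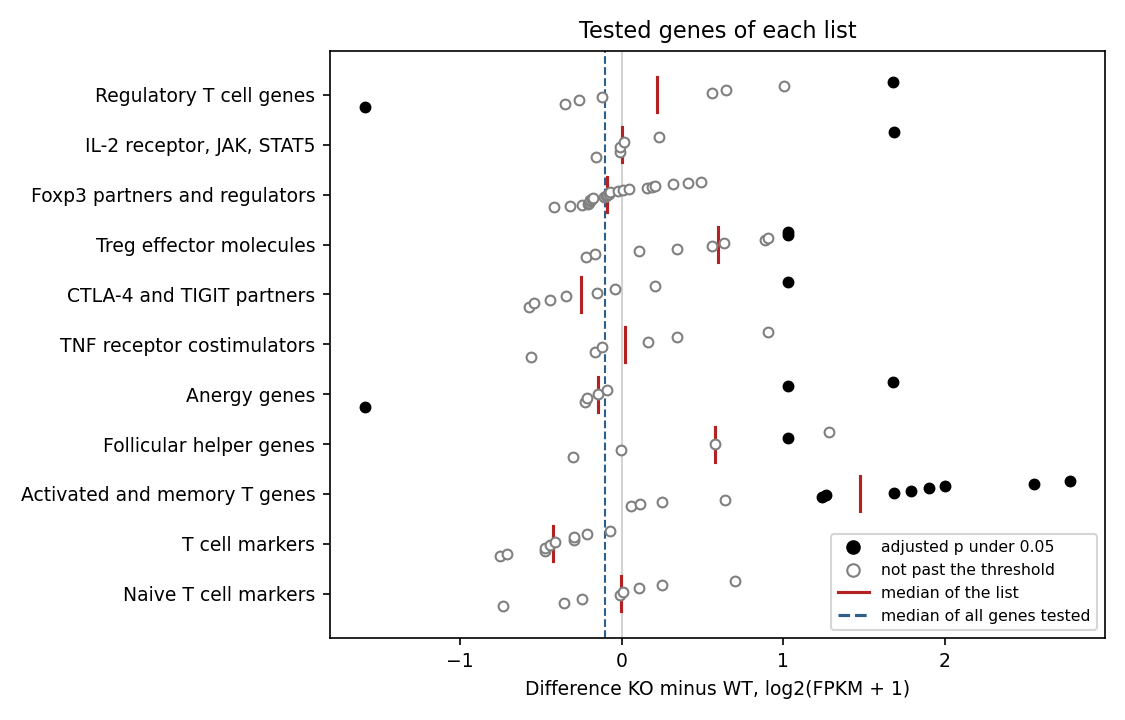
Difference of log2(FPKM + 1), Mettl3 KO minus WT, of each tested gene in 11 lists, filled where the limma adjusted p was under 0.05 and open otherwise, with the median of each list in red and the median of all tested genes (-0.10) dashed. Of the regulatory T cell genes 1 stands apart on each side. Of 12 activated and memory T cell genes 8 are filled on the higher side, 3 of them tested only through their KO libraries. Over all tested genes 1.56% were called higher.

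Markers of T cells had 0 of 10 genes past the threshold by limma and 5 at an unadjusted p under 0.05, against 2.22% and 18.4% of all tested genes, with a median log2 difference of -0.43 and a summed level of 571 and 570.2 FPKM in KO and 670.1 and 779 FPKM in WT. Set against Cd3e, which encodes a chain of the T cell receptor complex, Foxp3 was at 0.120 and 0.0843 in KO and 0.114 and 0.0997 in WT, and the genotypes overlapped. Set against Cd4, Foxp3 was at 0.0219 and 0.0158 in KO and 0.0227 and 0.0239 in WT, with both KO libraries lower. Cd3e itself had a log2 difference of -0.30, and Cd4 changed sign when libraries were centred or rescaled. Relative to Cd3e Nrp1 was at 0.270 and 0.269 in KO and 0.0455 and 0.0266 in WT, and Izumo1r at 0.291 and 0.271 in KO and 0.824 and 0.729 in WT. Naive T cell markers had 0 of 8 past the threshold by limma and 3 at an unadjusted p under 0.05. Of these markers Il7r, higher in both KO libraries, missed the threshold in the main fit (limma adjusted p = 0.0750). It passed with libraries centred on their medians (0.0437) and among genes of at least 5 FPKM (0.0492).

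Markers of other cells were also measured. B cell markers summed to 9.58 and 22.8 FPKM in KO and 32.3 and 19.5 FPKM in WT, with 0 of 6 past the threshold by limma, 1 at an unadjusted p under 0.05 and Pax5 at 0 in all libraries. The myeloid and dendritic list summed to 42.4 and 50.8 FPKM in KO and 55.8 and 59.4 FPKM in WT, most of it from Cst3 and Lyz2. In that list Tyrobp, an adaptor of activating receptors in myeloid and NK cells, fell to 0.838 and 0.871 FPKM in KO, against 4.38 and 7.16 FPKM in WT (limma adjusted p = 0.0168, and 0.0448 to 0.179 with 1 library left out), 1 of 5 tested, which reached the level for testing only through its WT libraries. Myeloid and dendritic cells also make Capg and Nrp1, and the part of such cells in those values was not tested. NK markers summed to 20.9 and 26.6 FPKM in KO and 12.9 and 17.8 FPKM in WT, with 0 of 5 past the threshold by limma, 2 at an unadjusted p under 0.05 and Ncr1 at 0. These markers did not share a direction. Nkg7 (11.0 and 16.1 FPKM in KO, 3.13 and 8.11 FPKM in WT), Eomes and Prf1 were higher in both KO libraries. Klrb1c (0.252 and 0.459 FPKM in KO, 1.06 and 0.862 FPKM in WT) and Klrk1 (1.04 and 1.14 FPKM in KO, 1.72 and 1.78 FPKM in WT) were lower in both, and Klre1 overlapped. Klrb1c was below the level for testing. Over all tested genes the libraries did not overlap at 50.9%, with KO above at 16.3% and below at 34.6%. Of all tested genes 2.22% passed the threshold and 18.4% had an unadjusted p under 0.05. Nkg7 did not pass in the main fit (limma adjusted p = 0.145) and passed with the replicate block (0.0412). The part of NK cells in the results was not tested. Cd8a and Cd8b1 together were at 1.47 and 1.28 FPKM in KO and 1.13 and 2.41 FPKM in WT. Of the NKT and gamma-delta T cell list 4 of 6 genes were in the table, with none tested, Sox13 at 0 and sums under 1 FPKM.

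The genes whose pattern over the 4 libraries was nearest to that of the called genes were found by the root mean square difference of log2(FPKM + 1), centred on the mean of each gene, over the 4 libraries. Nearest to Nrp1 was Gbp10, an interferon-inducible GTPase gene (23.8 and 30.5 FPKM in KO, 8.85 and 7.27 FPKM in WT), at 0.0375, followed by Gm10684 at 0.0620 and Fam129a at 0.0648. Nearest to Izumo1r was the small GTPase gene Rhob (2.79 and 2.67 FPKM in KO, 9.54 and 11.3 FPKM in WT), at 0.0979, followed by Gm14718 at 0.107 and Erh at 0.115.

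As a feature that the choice of genes did not use, GGAC, the core of the sequence in which Mettl3 methylates adenosine, was counted in the coding sequences on the transcript strand. It was present in all 10 genes and in 97.4% of the 8672 tested coding genes. Per kilobase of coding sequence, Izumo1r held 6.83, Nrp1 4.33, Foxp3 6.99, Ctla4 7.47 and Capg 7.64, and Tigit was lowest at 2.77, against a median of 4.78 and quartiles of 3.29 and 6.49 for the tested coding genes. The density of Nrp1, which rose, lay between the quartiles. That of Izumo1r, which fell, lay above the upper quartile, as did those of Foxp3, Ctla4 and Capg, which did not pass the threshold. Untranslated regions were not counted, and the letters do not show that a site is methylated.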

How the data were processed

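Per the file headers, the authors deposited FPKM for 4 footprint libraries, a column for each replicate. TopHat, Cuffdiff and mm10 (GRCm38) are named in the submitters' processing notes. Which annotation and strand setting they used, and whether libraries were scaled to each other, is not given in the sources used here. Per the labels' protocols, 9 PCR cycles were run. Groups came from the sample titles, and the 4 input RNA samples were not analysed here.

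Genes for small RNAs, recognised by symbol (1225), were removed, and the test kept the 9271 others whose mean reached 1 FPKM. log2(FPKM + 1) was compared with limma 3.58.1 in R 4.3.3 (trend, two-sided, 2 residual and 5.19 prior degrees of freedom), and p-values were adjusted by Benjamini-Hochberg over these 9271. Fold changes on this scale understate the change of low genes. The fit was run on simulated data with changes only in more abundant genes and with noise set by level alone. Changes were placed in genes of at least 5 FPKM in WT. That run does not cover genes as low in WT as Foxp3, Ikzf2, Ctla4, Tigit or Nrp1. Il2rb, Tnfrsf4, Cxcr6 and Bhlhe40 were also below that level in WT. Depth came from the most frequent low value of FPKM times transcript length among 4035 genes with 1 transcript. Estimated reads use the principal transcript of GENCODE M21, as the lengths the authors used are unknown, and have no interval. Other steps used Python 3.11.15.

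The genes and 16 further lists were chosen with earlier results of these data known. The rule named Mettl3, the 10 genes, up to 4 called genes of each list, the 2 most abundant of each list with fewer than 2 calls, and the 3 nearest patterns of each called gene. Other genes in the text fall outside this rule. Among them are Il2ra, Il10, Itgb8, Tbx21, Ccr2, Dgka, Cd3e, Prf1, Klrb1c, Klrk1 and Klre1, and the neighbours Mre11a, Panx1 and Ankrd49.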

Additional observations from a re-analysis of the deposited data

How the results depend on the processing

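Nrp1 and Izumo1r kept their direction in every setting that tested them. They were both called with pseudocounts of 0.1 and 5, small RNA genes kept, no variance trend, the replicate block, libraries centred or rescaled, and protein-coding genes only. At a minimum of 5 FPKM Izumo1r and Capg were the 2 called and Nrp1 was not tested. With no filter on low genes limma called 0 of the 10 genes and 0 of 15458 in all, although 5 and 2061 had an unadjusted p under 0.05 (4 and 1707 with the filter). Centring called 257 of 9271 genes, 206 as higher, including 4 of the 8 tested regulatory T cell genes. Leaving out 1 library called 0 of them each time, with 4 at an unadjusted p under 0.05, and 1 to 57 genes in all, against 206 with all libraries. Such a fit has fewer residual degrees of freedom. All genes called numbered 83 with small RNA genes kept and 68 with no variance trend. For those changes the cause was not tested.

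The replicate numbers are not stated to mark a shared animal or day, and the correlation of same-numbered deviations was -0.0925. The replicate block gave 171 calls, and 2 of the regulatory T cell genes. Rescaling and protein-coding genes only were chosen after seeing the data.

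Some genes that did not pass the threshold changed sign. Centring gave Satb1 0.0013, Ikzf1 0.0237, Cd96 0.0566, Cxcr5 0.0933 and Cd4 0.0238, and rescaling gave Ikzf1 0.0062, Cd96 0.0392, Cxcr5 0.0543 and Cd4 0.0079. With 1 library left out, log2 differences ran from -0.2221 to 0.0357 for Satb1, -0.2346 to 0.093 for Ikzf1, -0.1294 to 0.2178 for Ikzf3, -0.2232 to 0.1474 for Cd96, -0.6083 to 0.0125 for Cd200, -0.0395 to 0.037 for Cxcr5, -0.2218 to 0.0803 for Cd4, -1.4365 to 0.1292 for Ms4a1, -0.6343 to 0.2777 for Cd8b1 and -0.1223 to 0.1505 for Il2rg. Gpr83, untested, was at -0.17 with all libraries and 0.15 without WT library 2. Depth limits Gpr83, Ikzf4 and Tigit most.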
